A study of Mus musculus with 6 samples.

Results

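The genes described here are 10 surface receptors and markers of tissue-resident macrophages, measured by RNA-seq in hypoxic (HO) cultures of cardiomyocytes from newborn mice (NMCMs). They were Mrc1, Cd163, Msr1, Marco and Stab1, which take up modified or unwanted extracellular material, Timd4 and Mertk, which bind apoptotic cells, and Lyve1, Folr2 and Adgre1, which mark resident macrophages or macrophages in general. The members were chosen by gene name with the change of these same genes between these same libraries already known, so their changes are given as a description and no p-value is printed for them. All 10 were present among the 57010 genes of the deposited table, and all 10 were among the 14799 genes that passed the filter on low counts. Cd163 passed this filter through the HO + β-SITO libraries alone. Timd4 passed it only because of the HO + Vehicle libraries, with 4 counts in T5 and 6 in T6 against a minimum count of 10.

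There were 6 libraries in 2 groups, V1 to V3 for HO + Vehicle and T4 to T6 for HO + β-SITO, where β-SITO is the plant sterol β-sitosterol. Cells of both groups came from hearts of newborn C57BL/6 mice, were separated from fibroblasts by differential adhesion, and were under hypoxia, so no normoxic value is given. The concentration of β-SITO and how long these cells were exposed are not given in the sources used here. The labels do not say whether the replicates were separate cultures or animals, so the errors describe the spread between these libraries, which may be technical.

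Resident macrophages settle in the heart before birth, where they clear dying cells and debris. Scavenger receptors bind polyanionic or glycosylated ligands and carry them into the cell, while receptors for apoptotic cells recognise phosphatidylserine on the dying cell, either directly or through a bridging protein, in the process called efferocytosis. In the mouse heart, Lyve1, Folr2 and Timd4 are used to mark macrophages that maintain themselves locally, and Ccr2 to mark those that come from blood monocytes.

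V1 to V3 held 16694734 to 17082129 counts and T4 to T6 held 16962152 to 18460522. Across all tested genes the median log2 fold change was -0.01, and 1492 genes were lower and 1888 higher in HO + β-SITO by the quasi-likelihood test of edgeR (Benjamini-Hochberg adjusted p under 0.05 and a fold change above 2). Calls in both directions made up 22.8% of the tested genes. T4 stood apart from T5 and T6 in cardiomyocyte markers, whose summed level was 5477 CPM in T4, 8945 CPM in T5 and 9009 CPM in T6, where CPM are counts scaled to a common library size. The names of the HO + β-SITO libraries carry a suffix that those of the HO + Vehicle libraries lack, and a difference in how the groups were prepared cannot be told apart from the effect of β-SITO.

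By the same threshold 6 of the 10 members were higher in HO + β-SITO (Mrc1, Cd163, Stab1, Mertk, Lyve1 and Folr2), 3 were lower (Msr1, Marco and Timd4) and 1, Adgre1, was neither, where 12.8% of all tested genes were higher and 10.1% lower. The groups did not overlap for 9 of the 10, as for 70.5% of all tested genes. Since the genes were picked with these changes known, nothing is read from the comparison of these shares. The members therefore moved in opposite directions, and both directions occurred among the scavenger receptors and among the receptors for apoptotic cells. Of the markers of locally maintained macrophages named above, Lyve1 and Folr2 rose and Timd4 fell. Their log2 fold changes ran from -6.16 for Marco to 5.19 for Cd163, with a median of 1.45. RNA from a whole culture was measured, so fewer cells of a type and less RNA per cell cannot be told apart.

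**Figure D1:**
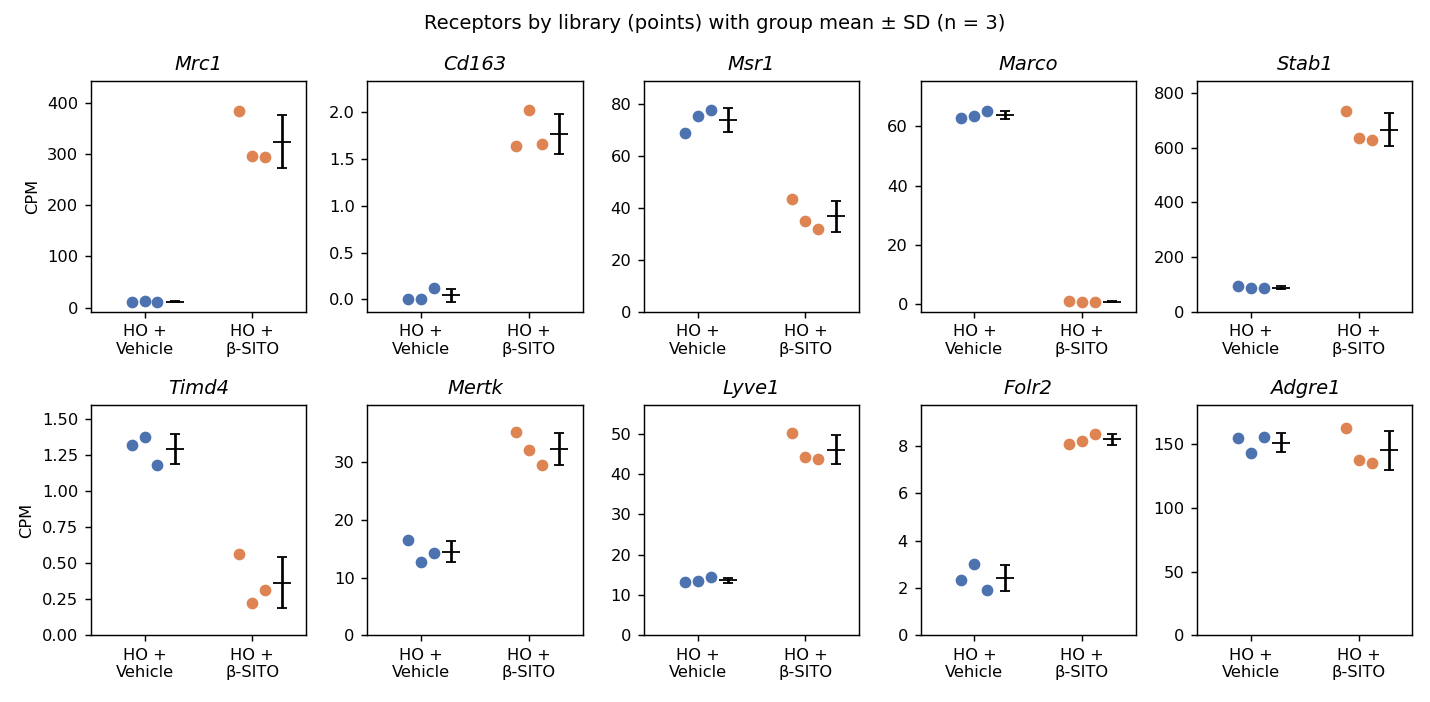
Level of each of the 10 receptors in each library, in CPM on a linear axis, with 1 panel per gene, points for the 3 HO + Vehicle and 3 HO + β-SITO libraries, and bars for the mean ± SD. Mrc1 and Stab1 were high in all HO + β-SITO libraries, Marco was at 0.674 to 1.08 CPM in them, and the points of Adgre1 overlapped between the groups.

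Mrc1, the macrophage mannose receptor (CD206), lies on chromosome 2 from 14234203 to 14336868 on the plus strand (GRCm39, as for all gene positions here). Its level was 11.5, 12.9 and 10.8 CPM in V1 to V3 and 384, 296 and 294 CPM in T4 to T6. All 3 HO + β-SITO libraries lay far above the HO + Vehicle libraries, and T4 was the highest. The mean rose from 11.7 ± 1.06 to 325 ± 51.5 CPM (SD, n = 3 each), a 27.7-fold increase, with a log2 fold change of 4.79 (SE 0.12). Of all tested genes, 31 had a larger log2 fold change.

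Stab1 encodes stabilin-1, a large receptor of resident macrophages and sinusoidal endothelium that clears acetylated lipoprotein and matrix fragments, and lies on chromosome 14 from 30860970 to 30890598 on the minus strand. It had 94.6, 84.9 and 85.3 CPM in V1 to V3 and 734, 634 and 628 CPM in T4 to T6, with no overlap. The mean rose from 88.3 ± 5.51 to 665 ± 59.2 CPM, which is 7.54-fold, with a log2 fold change of 2.91 (SE 0.08). Nt5dc2, on the opposite strand, overlaps Stab1 in the annotation and held 351 to 678 counts per library, against 1356 to 14291 for Stab1. Whether the counting used strand is not given in the sources used here.

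Cd163, the receptor for complexes of hemoglobin and haptoglobin, lies on chromosome 6 from 124281615 to 124307486 on the plus strand. It held 0, 0 and 2 counts in V1 to V3 and 32, 36 and 32 counts in T4 to T6. The HO + β-SITO libraries were all higher, but Cd163 remained at a mean of only 1.78 ± 0.21 CPM in them. The pooled counts, 2 against 100, gave a 42.4-fold higher level in HO + β-SITO, with an exact 95% interval of 11.4 to 355 that covers counting error only. V3 held both HO + Vehicle counts, and without it the level in HO + β-SITO was at least 9.38-fold higher than in HO + Vehicle, with 3 counts per library taken as the floor.

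Marco, a collagen-containing class A scavenger receptor that binds bacteria and particles, lies on chromosome 1 from 120402267 to 120432753 on the minus strand. Its level was 62.8, 63.5 and 65.2 CPM in V1 to V3 and 1.08, 0.674 and 0.884 CPM in T4 to T6. The HO + Vehicle libraries were close to each other, and every HO + β-SITO library held only 12 to 21 counts. The mean fell from 63.8 ± 1.24 to 0.879 ± 0.202 CPM, 71.6-fold lower, with a log2 fold change of -6.16 (SE 0.12). Of all tested genes, 129 had a lower log2 fold change.

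Msr1, the class A scavenger receptor (CD204) that takes up modified lipoproteins, lies on chromosome 8 from 40034726 to 40095714 on the minus strand. It was measured at 68.8, 75.2 and 77.5 CPM in V1 to V3 and at 43.2, 35.1 and 31.8 CPM in T4 to T6. The groups did not overlap, and T4 was the HO + β-SITO library nearest to the HO + Vehicle group. The mean fell from 73.8 ± 4.50 to 36.7 ± 5.87 CPM, 2.01-fold lower, with a log2 fold change of -1.01 (SE 0.09). Its call rests on the fold threshold, since the change was under 2-fold with V2, V3, T5 or T6 left out (log2 fold changes of -0.99, -0.95, -0.95 and -0.90 in that order).

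Promoter windows from RefSeq on GRCm38.p6 were matched for 7 of the 10 members, in 8 windows, since Folr2 has 2. Those of Mrc1, Stab1 and Marco are printed because these genes had the largest changes among the well-expressed members, and Mrc1 and Marco changed in opposite directions. Each window holds 300 bases around the start of the gene, read 5′ to 3′ on the strand of the gene, at chr2:14229164-14229463 (plus strand) for Mrc1, chr14:31168592-31168891 (minus strand) for Stab1 and chr1:120504975-120505274 (minus strand) for Marco. Capitals mark matches, on either strand, to the motifs described after the sequences.
Mrc1 promoter: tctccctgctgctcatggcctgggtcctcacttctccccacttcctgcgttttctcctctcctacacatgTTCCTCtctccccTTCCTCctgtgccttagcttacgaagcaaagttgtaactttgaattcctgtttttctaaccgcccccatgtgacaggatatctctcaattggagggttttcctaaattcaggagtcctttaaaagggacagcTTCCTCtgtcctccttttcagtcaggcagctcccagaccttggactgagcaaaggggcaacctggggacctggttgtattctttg
Stab1 promoter: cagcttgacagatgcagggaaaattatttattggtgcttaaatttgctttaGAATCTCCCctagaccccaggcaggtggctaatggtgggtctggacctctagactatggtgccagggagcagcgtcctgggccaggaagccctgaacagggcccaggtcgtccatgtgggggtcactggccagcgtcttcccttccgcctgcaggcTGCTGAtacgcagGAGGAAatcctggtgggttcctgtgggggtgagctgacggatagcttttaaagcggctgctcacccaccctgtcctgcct
Marco promoter: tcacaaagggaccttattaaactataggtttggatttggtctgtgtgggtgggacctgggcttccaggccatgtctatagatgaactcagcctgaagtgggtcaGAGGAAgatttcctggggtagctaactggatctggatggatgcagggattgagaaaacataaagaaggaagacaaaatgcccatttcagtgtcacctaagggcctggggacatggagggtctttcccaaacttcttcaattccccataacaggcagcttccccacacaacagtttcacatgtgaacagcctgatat

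The letters GAGGAA, a core bound by ETS factors such as the macrophage factor PU.1, were found 3 times in the Mrc1 window and 1 time each in those of Stab1 and Marco, so that they occurred in genes that rose and in a gene that fell. They were present in 3 of the 8 member windows and in 28.3% of all 32851 windows. TGCTGA, a site type of MAF factors, was in 4 member windows (Stab1, Timd4 and both windows of Folr2) and in 19.5% of all windows. GGGANNTTC, an NF-κB-type core, was found in the Stab1 window and in 3.94% of all windows. The AP-1 site TGAGTCA was in 1 member window, that of Folr2, and in 5.20% of all windows. A nuclear receptor half-site with the letters AGGTCA was found in the window of Timd4 and in 16.3% of all windows. GAAANNGAA, an IRF core, was in the windows of Timd4 and Folr2 and in 8.56% of all windows. The hypoxia-response core ACGTG was found in the window of Cd163 and in 19.6% of all windows. The C/EBP motif TTGCNNAA was in none of the member windows and in 10.8% of all windows. The E-box CACGTG was likewise in none of the member windows, against 7.15% of all windows. For TATAAA, the TATA box, the member windows held none and 13.6% of all windows held a match. In the 13920 windows of tested genes, shares were 26.8% for GAGGAA, 15.5% for TGCTGA, 12.4% for AGGTCA, 3.95% for TGAGTCA and 8.59% for TTGCNNAA. They were 7.36% for GAAANNGAA, 3.55% for GGGANNTTC, 9.63% for CACGTG, 24.8% for ACGTG and 7.52% for TATAAA. A match says only that these letters are in the window.

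Among the receptors for apoptotic cells, Mertk, the receptor tyrosine kinase that binds dying cells through Gas6 or protein S, lies on chromosome 2 from 128540876 to 128644814 on the plus strand. Its level was 16.5, 12.8 and 14.2 CPM in V1 to V3 and 35.2, 32.2 and 29.6 CPM in T4 to T6. Every HO + β-SITO library was above every HO + Vehicle library. The mean rose 2.23-fold, from 14.5 ± 1.86 to 32.3 ± 2.79 CPM, with a log2 fold change of 1.16 (SE 0.10).

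Timd4, which encodes the phosphatidylserine receptor TIM-4, lies on chromosome 11 from 46701627 to 46735159 on the plus strand. It held 21, 22 and 19 counts in V1 to V3 and 11, 4 and 6 counts in T4 to T6. It was thus low in all 6 libraries, and lower in each HO + β-SITO library than in any HO + Vehicle library. The mean fell from 1.29 ± 0.10 to 0.367 ± 0.177 CPM, with a log2 fold change of -1.78 (SE 0.36). The ratio of the pooled counts was 3.48-fold, with an exact 95% interval of 2.09 to 6.01 for counting error only.

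Lyve1, a hyaluronan receptor shared by resident macrophages and lymphatic endothelium, lies on chromosome 7 from 110449814 to 110462446 on the minus strand. It had 13.2, 13.5 and 14.4 CPM in V1 to V3 and 50.1, 44.1 and 43.8 CPM in T4 to T6. The groups were well separated, and the mean rose 3.35-fold, from 13.7 ± 0.63 to 46.0 ± 3.55 CPM, with a log2 fold change of 1.75 (SE 0.08).

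Folr2, the folate receptor beta, is also on chromosome 7, from 101489195 to 101506401 on the minus strand. Its level was 2.33, 3.01 and 1.92 CPM in V1 to V3 and 8.11, 8.20 and 8.53 CPM in T4 to T6. The HO + β-SITO values were close to each other and all above the HO + Vehicle values. The mean rose 3.42-fold, from 2.42 ± 0.55 to 8.28 ± 0.22 CPM, with a log2 fold change of 1.77 (SE 0.17). The long noncoding RNA gene Gm10602, which overlaps Folr2 on the opposite strand, held 18 to 43 counts per library, so the count of Folr2 (31 to 164) is uncertain where reads could be assigned to either.

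Adgre1, which encodes the general mouse macrophage marker F4/80, lies on chromosome 17 from 57665691 to 57790527 on the plus strand. Its level was 155, 143 and 156 CPM in V1 to V3 and 163, 138 and 135 CPM in T4 to T6. The highest value of all was in T4 and the lowest in T6, and the groups overlapped. The means were 152 ± 7.20 and 145 ± 15.2 CPM, with a log2 fold change of -0.06 (SE 0.07), a value that was slightly above 0 under some other scalings and without T5 or T6.

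Levels of different genes were compared as RPKM, the CPM per kilobase of exon length. In the HO + Vehicle group the order was Adgre1 (46.8 ± 2.22 RPKM), Marco (33.2 ± 0.64), Msr1 (11.6 ± 0.71), Stab1 (8.58 ± 0.54), Lyve1 (4.70 ± 0.22), Mertk (3.34 ± 0.43), Mrc1 (1.84 ± 0.17), Folr2 (1.57 ± 0.36), Timd4 (0.595 ± 0.048) and Cd163 (0.00756 ± 0.0131). Only Mrc1 and Folr2 were neighbours whose libraries overlapped. In the HO + β-SITO group the order was Stab1 (64.7 ± 5.76 RPKM), Mrc1 (51.0 ± 8.08), Adgre1 (44.8 ± 4.69), Lyve1 (15.8 ± 1.22), Mertk (7.46 ± 0.64), Msr1 (5.79 ± 0.93), Folr2 (5.35 ± 0.14), Marco (0.456 ± 0.105), Cd163 (0.325 ± 0.039) and Timd4 (0.169 ± 0.081). Here Mrc1 overlapped Adgre1, Msr1 overlapped Folr2 and Marco overlapped Cd163.

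The leading receptor therefore changed from Adgre1 to Stab1. Adgre1 made up 40.4% to 42.5% of the summed RPKM of the 10 genes in V1 to V3 and 22.8% to 23.1% in T4 to T6. Marco went from the second place, with 28.9% to 30.1%, to 0.189% to 0.254%. Mrc1 went from 1.49% to 1.85% up to 25.1% to 27.4%, and Stab1 from 7.25% to 8.15% up to 32.4% to 33.5%. In the HO + β-SITO libraries Mrc1, Stab1 and Adgre1 together held most of the signal.

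**Figure D2:**
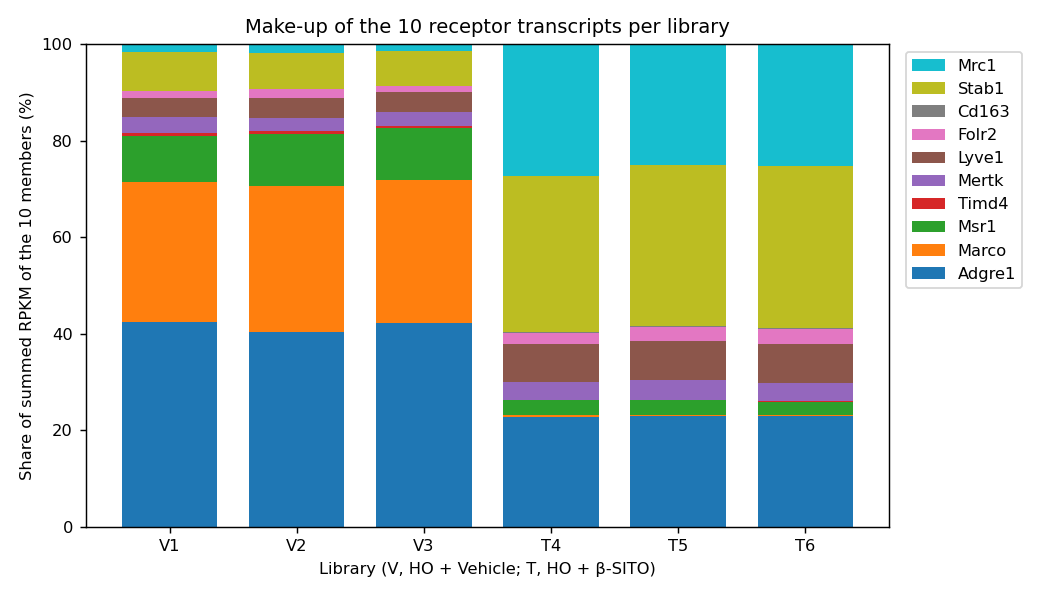
Share of each of the 10 receptors in their summed RPKM, in percent, as 1 stacked bar per library (V1 to V3 for HO + Vehicle, T4 to T6 for HO + β-SITO). Marco takes 28.9% to 30.1% of the HO + Vehicle bars and under 1% of the HO + β-SITO bars, in which Stab1 and Mrc1 are the largest segments.

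Ratios of the counts of 2 members in the same library do not depend on the scaling between libraries. Mrc1 counts were 0.184 ± 0.019 times those of Marco in HO + Vehicle and 376 ± 55.9 times in HO + β-SITO. Marco counts were 0.866 ± 0.040 times those of Msr1 in HO + Vehicle and 0.024 ± 0.0044 times in HO + β-SITO, so the class A scavenger receptors fell to different extents. Lyve1 and Folr2 both rose, whereas Timd4, also used to mark resident macrophages, fell. The ratio of Lyve1 to Folr2 was 5.89 ± 1.53 in HO + Vehicle and 5.56 ± 0.55 in HO + β-SITO, and the groups overlapped.

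Against Adgre1, the member whose level overlapped between the groups, Mrc1, Stab1 and Mertk were higher in HO + β-SITO and Msr1 was lower. Mrc1 held 0.0778 ± 0.0109 counts per Adgre1 count in HO + Vehicle and 2.23 ± 0.12 in HO + β-SITO. Stab1 held 0.583 ± 0.033 and 4.59 ± 0.07, and Mertk 0.0955 ± 0.0093 and 0.223 ± 0.009. The ratio of Msr1 to Adgre1 was 0.488 ± 0.042 in HO + Vehicle and 0.252 ± 0.015 in HO + β-SITO. The groups did not overlap for any of these 4 ratios.

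Other macrophage transcripts also moved, so the members were set against them. The summed level of 20 pan-macrophage markers was 2189, 2339 and 2315 CPM in V1 to V3 and 4407, 3633 and 3609 CPM in T4 to T6. Of these 20 markers 9 were higher, 1 (Fcgr1) was lower and 10 passed in neither direction by edgeR's quasi-likelihood test. The marker and gene lists here and below were also chosen with earlier results known, so adjusted p-values of their genes are a description. The receptor Csf1r had a log2 fold change of 1.54 (SE 0.07, adjusted p = 1.62e-11), whereas Ptprc (CD45), present on all leukocytes, had -0.03 (SE 0.09, adjusted p = 0.813) and Spi1, the gene of PU.1, had 0.47 (SE 0.10, adjusted p = 0.000758), which was under 2-fold. The marker list thus did not move as 1 block, and its part in the members' changes was not tested.

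Per 1000 pan-macrophage counts, Mrc1 went from 5.15 ± 0.43 to 83.4 ± 3.29, a log2 ratio of 4.02, and Stab1 from 38.8 ± 3.86 to 172 ± 4.52 (2.15). Marco went from 28 ± 0.78 to 0.225 ± 0.034 (-6.96), and Msr1 from 32.3 ± 1.03 to 9.43 ± 0.53 (-1.78). For Cd163 the log2 ratio was 4.70 and for Timd4 it was -2.62. The directions of these 6 receptors were those seen in CPM, with no overlap between the groups. Mertk, at 6.38 ± 1.05 and 8.35 ± 0.45, had a log2 ratio of only 0.39, and the log2 ratios of Lyve1 (0.98) and Folr2 (1.02) were smaller than their log2 fold changes. Adgre1 was lower per pan-macrophage count in every HO + β-SITO library, at 66.5 ± 4.90 and 37.4 ± 0.55. Without the 5 abundant markers C1qa, C1qb, C1qc, Lyz2 and Ctss, the log2 ratios were 4.41 for Mrc1, 2.55 for Stab1, -6.56 for Marco, -1.38 for Msr1, 0.79 for Mertk and -0.43 for Adgre1.

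Stab1 and Lyve1 are also expressed by endothelial cells, and the endothelial markers rose as well. All 12 were higher in HO + β-SITO, and their summed level was 264.6, 231.3 and 230.2 CPM in V1 to V3 and 923.9, 964.9 and 947.7 CPM in T4 to T6. Pecam1, a junction protein of endothelium, had a log2 fold change of 1.84 (SE 0.06, adjusted p = 6.54e-13 by edgeR's quasi-likelihood test). Relative to the endothelial counts, Lyve1 (log2 ratio -0.23) and Folr2 (-0.20) overlapped between the groups, Stab1 was higher (0.95), and Mrc1 (2.82) and Cd163 (3.39) were higher. Mertk (-0.80), Adgre1 (-2.03), Msr1 (-2.98), Timd4 (-3.78) and Marco (-8.15) were lower on this scale. The endothelial part in the rise of Stab1, Lyve1, Mrc1 or any other member was not tested.

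**Figure D3:**
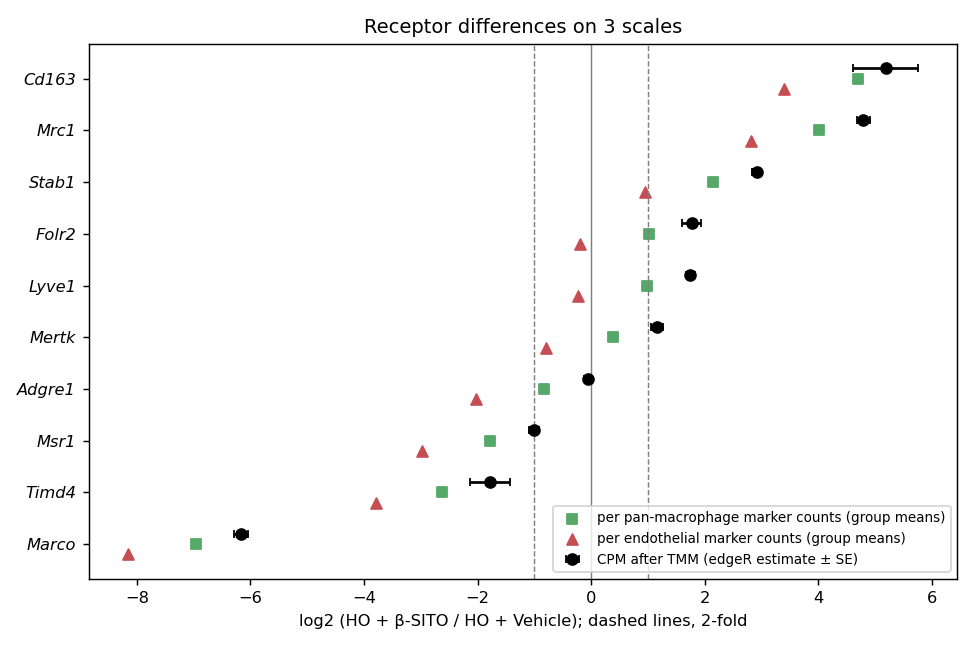
log2 ratio of HO + β-SITO to HO + Vehicle for each of the 10 receptors on 3 scales, with circles for the edgeR estimate ± SE from CPM, squares for the ratio of group means per pan-macrophage marker count, triangles for the same per endothelial marker count, and dashed lines at 2-fold. Mrc1 and Cd163 lie to the higher side and Marco, Msr1 and Timd4 to the lower side on all 3 scales, while Mertk, Lyve1 and Folr2 change side between scales.

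Prox1, the transcription factor that defines lymphatic endothelium, had a log2 fold change of 0.42 (SE 0.08, adjusted p = 0.000411 by edgeR's quasi-likelihood test), below the 2-fold threshold. Of the 7 lymphatic markers tested 3 were higher (Reln, Mmrn1 and Stab2), 2 were lower (Pdpn and Nrp2) and 2 passed in neither direction, and the median of their log2 fold changes was 0.42. The summed level of the list was 1315, 1244 and 1330 CPM in V1 to V3 and 415.0, 377.2 and 361.7 CPM in T4 to T6. Pdpn and Nrp2 made up 89.8% to 90.2% of this sum in V1 to V3, and without them, a choice made after their levels were seen, the other 6 genes summed to 134, 124 and 130 CPM in V1 to V3 and 149, 148 and 140 CPM in T4 to T6. The part of lymphatic cells in Lyve1 or any other member was not tested.

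Of 20 further genes of resident cardiac macrophages 16 were tested, of which 13 were higher, 1 (Wfdc17) was lower and 2 passed in neither direction. The median of their log2 fold changes was 1.97, against -0.01 for all tested genes. Their summed level was 620.9, 656.9 and 641.7 CPM in V1 to V3 and 1917, 1804 and 1773 CPM in T4 to T6, and Cd209f was at 0 in all libraries. Most of this sum was Gas6 (mean 230 CPM in HO + Vehicle and 566 CPM in HO + β-SITO), Selenop (128 and 495) and Fcgrt (118 and 210). Which cells held these transcripts was not tested. F13a1, the factor XIII A subunit, rose with Mrc1, from 4.27 ± 1.14 to 154 ± 19.4 CPM (log2 fold change 5.17, adjusted p = 2.90e-14 by edgeR's quasi-likelihood test). Gpr34, a lysophosphatidylserine receptor, went from 1, 3 and 0 counts to 156, 110 and 121 counts.

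Markers of recruited and other blood cells were also read. Ccr2 held 2, 2 and 3 counts in V1 to V3 and 9, 7 and 6 counts in T4 to T6, too few to be tested. Of the 5 recruited monocyte markers that were tested 4 were lower and 1 passed in neither direction, and the summed level of the list was 9549 to 10880 CPM in V1 to V3 and 10100 to 10800 CPM in T4 to T6. Fn1, which encodes fibronectin and was the gene that passed in neither direction, made up at least 90.2% of this sum in every library, and the other 10 genes summed to 923 to 964 CPM in V1 to V3 and 136 to 171 CPM in T4 to T6. Most of this remainder was again 1 gene, Vcan, with a mean of 700 ± 43.8 CPM in HO + Vehicle and 136 ± 19.1 CPM in HO + β-SITO. The lower genes included Plac8, with a log2 fold change of -2.79 (adjusted p = 5.95e-12 by edgeR's quasi-likelihood test). The neutrophil list summed to 16.03 to 17.35 CPM in HO + Vehicle and 3.64 to 4.723 CPM in HO + β-SITO, most of it Csf3r, with Ly6g and Retnlg at 0. In the lymphocyte list Cd3e, Cd3d, Ncr1 and Trbc2 were at 0. The dendritic cell list summed to 15.34 to 17.40 CPM in HO + Vehicle and 19.61 to 21.62 CPM in HO + β-SITO, with Cd209a and Siglech at 0. Most of it was Zbtb46, with means of 12.2 and 13.1 CPM in that order. The part of these cells in the members' changes was not tested.

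**Figure D4:**
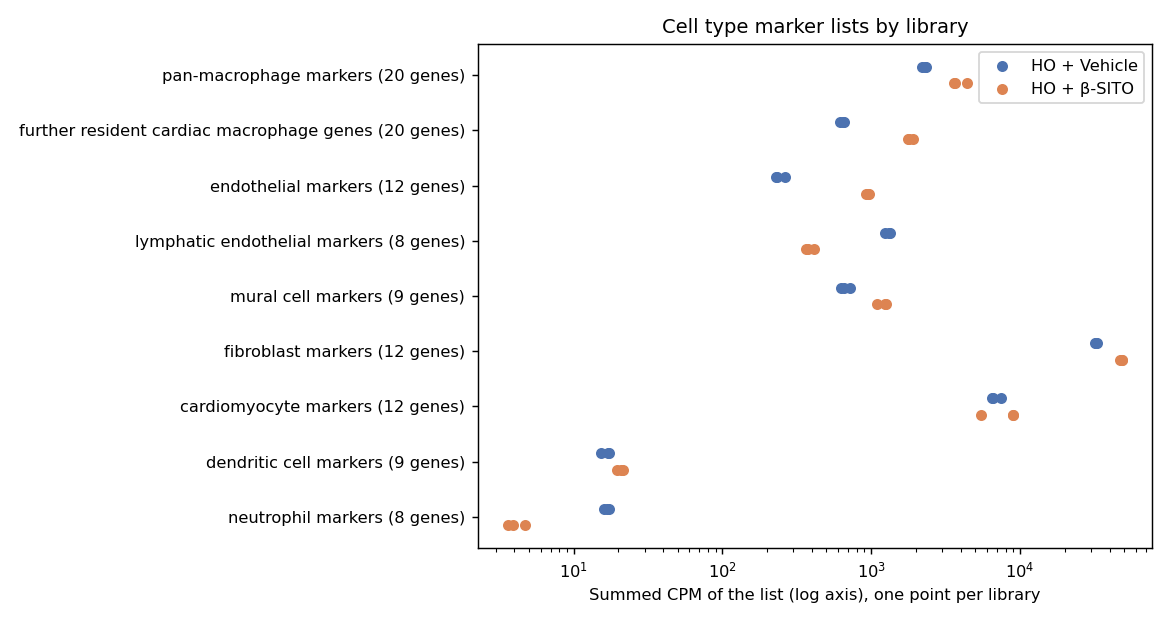
Summed level of the marker lists in each library, in CPM on a log axis, with 1 point per library, HO + Vehicle and HO + β-SITO side by side. The recruited monocyte and lymphocyte lists are not shown. The endothelial sums of HO + β-SITO (923.9 to 964.9 CPM) lie above those of HO + Vehicle (230.2 to 264.6 CPM), while the lymphatic sums, of which Pdpn and Nrp2 hold 89.8% to 90.2% in HO + Vehicle, and the neutrophil sums, mostly Csf3r, lie below.

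T4 was the highest of the HO + β-SITO libraries for 8 of the 10 members by CPM and for 3 of the 10 per pan-macrophage count. The spread of the HO + β-SITO libraries was smaller per pan-macrophage count than by CPM for 8 of the 10. For Mrc1 the coefficient of variation was 15.8% by CPM and 3.94% per pan-macrophage count, and for Adgre1 it was 10.5% and 1.46%. In the HO + Vehicle libraries 4 of the 10 had a smaller spread. These values describe how the members and the macrophage markers varied together between T4, T5 and T6, and the source of that shared variation was not tested.

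Genes around the members were taken from lists by function, each with its count of genes past the same threshold. Of the 257 listed genes that were tested and are no members, 75 were higher and 48 lower, and the median of their log2 fold changes was 0.30. Among 19 other scavenger receptors 4 were lower and 4 higher. Olr1, the lectin-like receptor for oxidised lipoprotein, fell as Marco did, from 84.7 ± 5.73 to 1.92 ± 0.37 CPM (log2 fold change -5.45, adjusted p = 1.81e-15 by edgeR's quasi-likelihood test). Cxcl16 (-3.78) and Cd14 (-1.56) also fell and the lysosomal receptor Cd68 rose, from 72.5 ± 0.57 to 220 ± 23.7 CPM. Cd36, a fatty acid and phosphatidylserine receptor, had 0.81, under 2-fold. Stab2, the paralogue of Stab1, held 0, 1 and 2 counts in HO + Vehicle and 12, 17 and 18 in HO + β-SITO. In the mannose receptor family Mrc2, the paralogue of Mrc1, rose (1.26, from 324 ± 21.1 to 776 ± 10.8 CPM), Ly75 fell (-1.92) and the other gene passed in neither direction.

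The partners of Mertk did not move together. Gas6, its ligand, rose from 230 ± 3.47 to 566 ± 4.22 CPM (log2 fold change 1.30, adjusted p = 1.01e-11 by edgeR's quasi-likelihood test), and Pros1, which encodes protein S, had 0.47. Axl, a related receptor tyrosine kinase, fell from 1880 ± 91.9 to 539 ± 3.52 CPM (-1.80), whereas Tyro3 had 0.99 and did not pass the fold threshold. Of the 16 other phosphatidylserine and engulfment receptors tested 3 were lower and 5 higher. Cd300a (3.10), Cd300lb (3.02) and Havcr2 (2.96), which bind phospholipids of dying cells, rose, and Itgav, an integrin chain, fell (-1.78). Of 13 bridging proteins and opsonins 7 were higher and 1 lower, with C1qa (1.70) and C1qc (1.57) rising and Ptx3, a long pentraxin, falling (-7.11).

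Of 26 tested genes of engulfment and the phagosome, 5 were higher and 2 lower, among them the adaptor Gulp1 (log2 fold change 2.26) and the Rac activator Dock2 (1.79), which rose, and Cybb, the phagosome oxidase subunit, which fell (-2.80). A list of 11 genes for the signals of dying cells, the exposure of phosphatidylserine and the receptors that read such signals had 4 lower genes, Panx1 (-2.00) and the scramblase Xkr8 (-1.93) included. The 1 higher gene of that list was Cx3cr1 (3.86), the fractalkine receptor of the phagocyte and also 1 of the pan-macrophage markers. Of 8 tested genes for signals against engulfment 1 was lower, 1 was higher and 6 passed in neither direction. Cd47, which inhibits engulfment, fell from 748 ± 22.4 to 155 ± 3.67 CPM (-2.27, adjusted p = 2.56e-14 by edgeR's quasi-likelihood test). The higher gene was Cd200r1 (2.41). Of 6 genes for shedding of receptors 3 were lower and 1 higher, with Adam17, the protease that sheds Mertk, lower (-1.20), Timp1 lower (-4.65) and Timp3, an inhibitor of Adam17, higher (2.61).

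Genes tied to single members by their ligands were mixed as well. Hp, which encodes haptoglobin, a part of the ligand of Cd163, fell from 130 ± 8.07 to 2.42 ± 0.60 CPM (log2 fold change -5.74), Hmox1, which breaks down heme, had 0.43, and the iron exporter Slc40a1 rose (3.96). For hyaluronan, the ligand of Lyve1, Cd44 (-2.60) and the synthase Has2 (-4.01) fell and Cemip, a hyaluronan-degrading protein, rose (3.83, from 59.0 ± 3.49 to 841 ± 99.0 CPM), and of 11 genes 4 were lower and 3 higher. In folate handling, 1 of 9 genes, Shmt2, was lower (-1.07) and none was higher. Of 25 tested macrophage transcription factors 6 were lower and 6 higher. Maf (1.59) and Cebpa (3.28) rose while Nr1h3, the gene of LXRα, fell (-1.23). Csf1, the growth factor for macrophages, fell (-2.74, from 1760 ± 29.4 to 263 ± 20.2 CPM). Of 9 tested alternative activation genes, a class in which Mrc1 is often counted, 2 were higher, with Arg1 rising (3.81), and 3 were lower, with Ccl17 falling (-2.60), and Retnla was at 0 in all libraries.

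**Figure D5:**
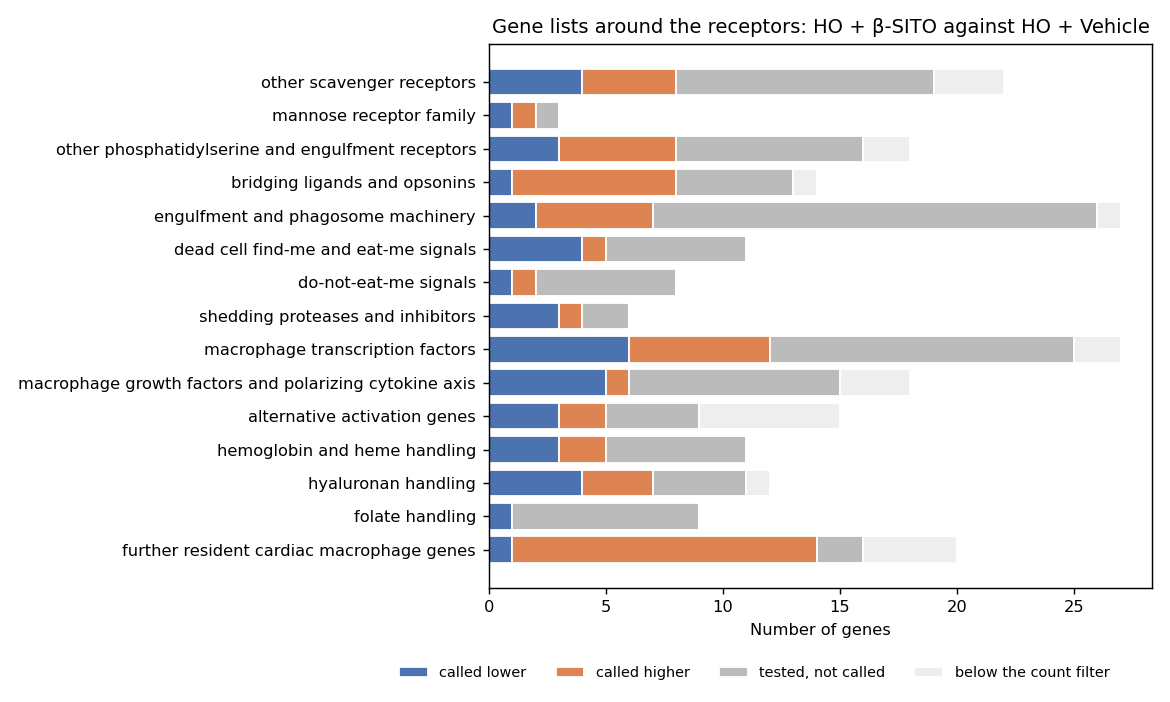
Number of genes in each functional list around the receptors, as 1 stacked bar per list with segments for genes called lower, called higher, tested but not called, and below the count filter. Most lists hold calls in both directions, and the further resident macrophage genes, with 13 of 16 tested genes higher, have the longest segment of higher genes.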

How the data were processed

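RNA-seq of 6 libraries was analysed from 1 deposited table of raw counts per gene, which the authors made without normalization. The submitters' processing notes name FastQC, HISAT2, featureCounts and GRCm39. The paper and the labels name different library kits, and counting options and strand are not given in the sources used here. In R 4.3.3 with edgeR 4.0.16, genes were kept by filterByExpr (minimum count 10, minimum total 15), scaled by TMM and tested between groups with the quasi-likelihood test and Benjamini-Hochberg adjustment, with thresholds of 0.05 for the adjusted p and 2 for the fold. The SE is the size of the log2 fold change divided by the square root of F. The procedure was tested on simulated data in which few genes changed, as many up as down. That does not test it under a change as broad as the one here. RPKM used exon lengths of GENCODE vM21, found for 14637 of the 14799 tested genes, since the deposited table holds none, although the design had assumed a length column.

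The members, lists and marker genes were chosen with earlier results of these data known. Adjusted p-values of listed genes are therefore a description and no independent test. Named genes are the members, up to 3 called genes per list and direction with a mean of at least 50 counts, fixed marker and partner genes, and the 2 genes most alike each member, apart from a few that are not reported here. Total counts were 16694734 to 18460522 per library. Cd163 and Timd4 held few counts, and their intervals cover counting error only. With 3 libraries against 3 the smallest exact permutation p is 0.1. Replicate pairs differed by more than counting noise. Alternatives were DESeq2 1.42.0, limma 3.58.1 (voom), glmTreat, other scalings and filters, and each library left out. The scale per endothelial counts and marker sums without their most abundant genes were added after the data were seen.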

Additional observations from a re-analysis of the deposited data

How the results depend on the processing

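Of 160 fold changes of the 10 members under the alternatives, 145 kept their direction and their side of the threshold. Adgre1 turned to 0.082 with upper quartile scaling and 0.087 with library size only, which moved the median of all genes to 0.14 in each case, and ran from -0.15 to 0.003 with each library left out. Msr1 passed no longer with either scaling (-0.86), without the filter on low counts, by glmTreat, or without V2, V3, T5 or T6. Mertk lost its call by glmTreat. Scaled to the pan-macrophage markers, which moved the median of all genes to -0.76, Mertk (0.39) and Lyve1 (0.98) lost theirs. That scaling gave 4978 lower and 821 higher genes, 14.2% of calls higher against 55.9%, and 90 lower and 46 higher of the listed genes that are no members. Without a fold threshold 5007 genes were lower and 4885 higher, and 97 and 132 of the listed genes. The cause of these changes was not tested. With each library left out, the log2 fold change of Cd163 ran from 4.68 to 7.98, the highest without V3, after which HO + Vehicle had no count and the value depends on the prior count. Depth limits Cd163, Timd4 and Ccr2. No paired analysis was possible because replicate numbers 1 to 3 and 4 to 6 are not shared between the groups.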

Other observations

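Many tested genes ran with the members over the 6 libraries, which fall into 2 groups of 3, so a high Pearson r of log2 CPM mostly reflects the shared group difference. At an r of at least 0.99 there were 1181 genes for Marco, 885 for Stab1, 815 for Mrc1, 712 for Lyve1, 220 for Folr2, 206 for Mertk, 161 for Cd163, 89 for Msr1, 24 for Timd4 and 0 for Adgre1. The genes most alike were Pmp22 and Ftl1-ps1 for Mrc1, Slfn2 and Il1b for Marco, Gyg and Fcrls for Stab1, Coro7 and Prelp for Lyve1, and Ogdhl and Gramd1b for Mertk. For Cd163 they were Plxdc2 and Meis2, for Msr1 Hnrnpk and Klhl6, for Timd4 Rrp9 and Themis2, and for Folr2 Ctxn1 and Crtap. Adgre1, whose groups overlapped, was most alike Zfp64 (r = 0.975) and Tent5c. These values are a description only.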
